A study of Daphnia magna with 2 samples.

Results

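Muscle-like barcodes of the water flea Daphnia magna were taken from droplet single-cell RNA sequencing of whole animals by the transcripts of 2 kinds of muscle protein. Paramyosin, whose gene carries the fly symbol PRM, is the rod protein in the core of invertebrate thick filaments, and MP20 (muscle protein 20) is a calponin-like actin-binding protein known from fly muscle. A barcode was a member when it held at least 300 UMIs (unique molecular identifiers, each marking a captured RNA molecule) and at least 3 UMIs summed over the genes with either symbol. The rule found 152 of 8983 barcodes with at least 300 UMIs, namely 33 of 5019 in the sample from young animals and 119 of 3964 in the sample from mixed animals. These are shares of 0.658% (95% exact binomial interval 0.453 to 0.922) and 3.0% (2.49 to 3.58). The intervals here and below cover counting error only.

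Each sample was made from dissociated whole animals, 1 titled as young and the other as male, female, young and old together, and called the young and the mixed sample below. Both were kept under the same standard laboratory conditions, digested with collagenase at 4 mg/ml, and their polyA RNA was barcoded with inDrops, in which a cell shares a droplet with a barcode-carrying hydrogel bead. The labels name no strain, genotype or number of animals, and no agent was given to the animals of either sample. Each group is 1 sample, so no difference between the samples has a replicate check and no test was run. The kept barcodes held 3401837 UMIs in the young and 3434952 UMIs in the mixed sample.

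A striated muscle fibre is built from sarcomeres, in which thick filaments of myosin slide along thin filaments of actin that are anchored at the Z disc by alpha-actinin. Calcium released inside the fibre acts on the troponin complex, which with tropomyosin then frees the thin filament for myosin, until the calcium pump SERCA returns the ion to its store. In arthropods giant elastic proteins such as Sallimus and projectin tie the thick filaments to the Z disc, and most body muscles attach to the cuticle through epidermal cells.

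The 3 genes of the rule did not mark the same barcodes. Paramyosin (MYH6/PRM DAPMA1EVG025173, human and fly symbols followed by the identifier in the files) gave 103 UMIs in the young and 626 UMIs in the mixed members. The MP20 gene at m000012F_a18.65 gave 58 and 173 UMIs, and the MP20 gene at s000023F_p1.94 gave 80 and 259 UMIs. These MP20 genes share an identifier, so the counting may have split reads between them. In 18 young and 88 mixed members at least 1 UMI came from paramyosin or from the MP20 gene m000012F_a18.65, and these 106 are called PRM-positive below. In the other 15 young and 31 mixed members every rule UMI came from the MP20 gene s000023F_p1.94, and these 46 are called MP20-only. This split was made after the values were seen and uses rule genes, so the levels of the 3 genes in either class are only a description.

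The muscle label held for most PRM-positive members and not for the MP20-only members. The troponin genes and the myosin light chain MLC1, none of which the rule used, together made up 2.60% of the UMIs of the young PRM-positive members (95% interval 2.35 to 2.88) and 3.17% in the mixed sample (3.02 to 3.32). Among all other barcodes with at least 300 UMIs they made up 0.0172% and 0.0319%, which is 151-fold and 99.2-fold less. The MP20-only members held 2 such UMIs among 30655 in the young sample and 11 among 61321 in the mixed sample.

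Counted by barcode, at least 5 UMIs of these 4 genes were found in 15 of 18 young (83.3%) and 68 of 88 mixed (77.3%) PRM-positive members. No MP20-only member reached that number, in 0 of 15 young and 0 of 31 mixed barcodes, which allows shares of up to 20% and 9.68%. Of the other barcodes 3 of 4986 (0.0602%) and 20 of 3845 (0.520%) reached it. Median depths were 684 and 459 UMIs for the PRM-positive members, 2150 and 1932 UMIs for the MP20-only members and 443 and 572 UMIs for the others, so the PRM-positive members were shallower than the MP20-only members in both samples, deeper than the others in the young sample and shallower than them in the mixed sample.

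The MP20-only members were instead rich in cuticle protein transcripts. A list of 70 cuticle and chitin genes made up 9.52% of their UMIs in the young (9.17 to 9.87) and 4.28% in the mixed sample (4.12 to 4.45). In the PRM-positive members the same list made up 0.211% and 0.296%, and in the other barcodes 0.568% and 0.378%. At least 10 cuticle UMIs were present in 15 of 15 young and 23 of 31 mixed MP20-only members. This compares with 0 of 18 (a share of up to 16.7%) and 3 of 88 (3.41%) PRM-positive members, and with 2.73% and 4.71% of the other barcodes. Since these barcodes held few troponin or MLC1 UMIs, they are named here by the rule alone.

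**Figure D1:**
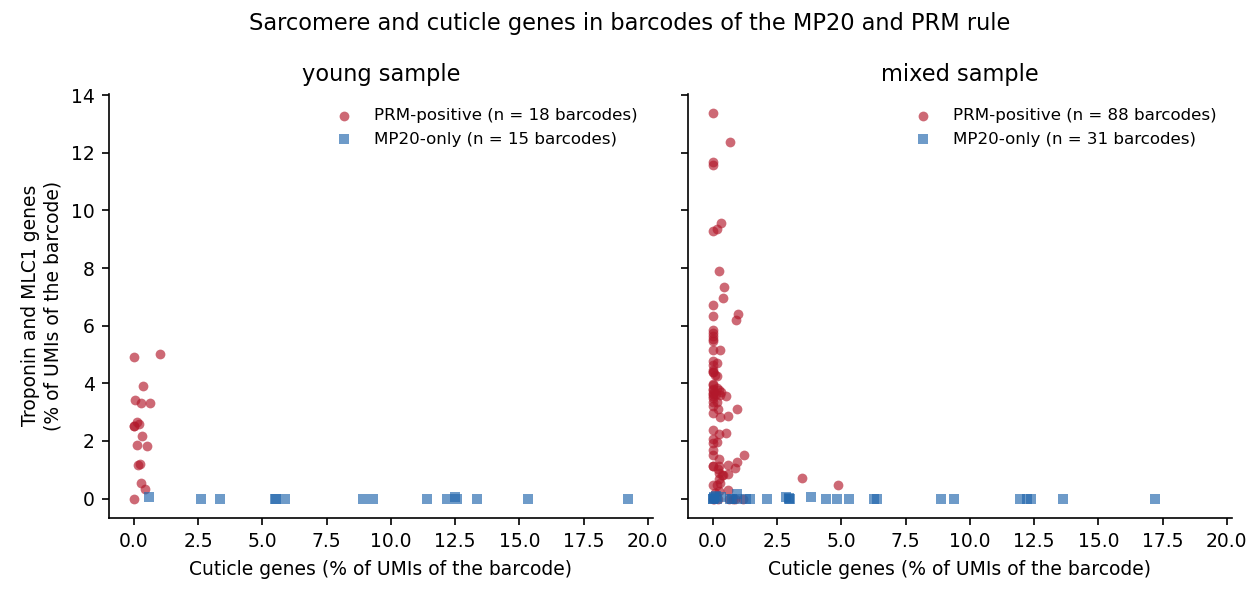
Each point is a member barcode of the young (left) or mixed (right) sample, with the percent of its UMIs from the troponin genes and MLC1 against the percent from the cuticle and chitin list. PRM-positive members (red circles) spread upward, with medians of 2.52% and 3.36% troponin and MLC1, while MP20-only members (blue squares) lie along the bottom, with medians of 9.31% and 2.96% cuticle.

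The 2 signals seldom met in a barcode. The troponin and MLC1 percent of a PRM-positive barcode ran from 0 through a median of 2.52% to 5.03% in the young and from 0 through 3.36% to 13.4% in the mixed sample. In MP20-only barcodes the highest values were 0.0465% and 0.157%. Cuticle percent ran the other way, from 0.605% through 9.31% to 19.2% in young MP20-only barcodes, against a highest value of 1.0% in young PRM-positive ones, so that the lowest MP20-only values overlapped the highest PRM-positive ones. In the mixed sample the MP20-only range was 0 through 2.96% to 17.2% and the PRM-positive range reached 4.87%. A barcode with both at least 5 troponin or MLC1 UMIs and at least 10 cuticle UMIs was found 0 times in 33 young members, which allows up to 9.09%, and once in 119 mixed members.

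A deeper barcode has more chances to hold a UMI of any gene, so shares were also taken after thinning each barcode to 300 UMIs. Free RNA in the droplets can also give UMIs to a barcode. Thinning does not remove it, and its part was not tested. At that depth a troponin or MLC1 UMI was present in 88.9% of young and 89.8% of mixed PRM-positive members, against 0 of 15 and 0 of 31 MP20-only members (up to 20% and 9.68%) and 5.40% and 10.1% of the other barcodes. Without thinning the values were 94.4% and 92.0% for PRM-positive members, 13.3% and 25.8% for MP20-only members, and 9.61% and 18.5% for the others. The unthinned MP20-only shares come from barcodes that were deeper in the median than the others. A cuticle UMI after thinning was present in 100% and 80.6% of MP20-only members, in 44.4% and 44.3% of PRM-positive members, and in 63.4% and 33.6% of the others. The wider list of 40 sarcomere genes, which includes non-muscle forms, separated the classes little. After thinning 94.4% and 97.7% of PRM-positive and 93.3% and 80.6% of MP20-only members held a UMI of it. Of the others 76.05% and 73.3% did. This measure is called the sarcomere-UMI share below.

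Regulators of the thin filament separated the PRM-positive members from both the MP20-only members and the other barcodes. WUPA (ZNF593/WUPA DAPMA1EVG029984), troponin I, which holds the thin filament off in resting muscle, had 11964 CPM (counts per 1000000 UMIs of the class) in young and 15029 CPM in mixed PRM-positive members. The other barcodes had 91.8 CPM and 139 CPM, so the PRM-positive sums were 130-fold (95% interval of the ratio 108 to 157) and 108-fold (96.4 to 122) higher. In the MP20-only members it had 32.6 CPM from 1 UMI and 114 CPM, at or near the level of the other barcodes. Troponin I was seen in 16 of 18 and 73 of 88 PRM-positive barcodes, and in 5.50% and 9.52% of the other barcodes.

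UP (TNNT3/UP DAPMA1EVG015072), troponin T, which binds the complex to tropomyosin, had 4554 CPM and 2058 CPM in the young and mixed PRM-positive members. It had 19.96 CPM and 13.2 CPM in the other barcodes, ratios of 228 (160 to 325) and 155 (108 to 226). MP20-only members held 0 and 1 UMI of it.

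A muscle-type and a cytoplasmic actin gene moved in opposite directions. ACT87E (ACTB/ACT87E DAPMA1EVG020786), a muscle actin in flies, had 5234 CPM and 7986 CPM in PRM-positive members. The other barcodes had 151 CPM and 74.7 CPM, which is 34.6-fold (26.9 to 44.1) and 107-fold (91.2 to 126) lower. ACT5C (ACTG1/ACT5C DAPMA1EVG020786), a cytoplasmic actin in flies, had 476 CPM in young PRM-positive members against 3991 CPM in the others, a ratio of 0.119 (0.0479 to 0.246). In the mixed sample PRM-positive members had 0 UMIs of it, a limit of 56.6 CPM at 3 UMIs, against 357 CPM in the others. The 2 genes and an unnamed gene share the identifier DAPMA1EVG020786, so their reads may have been divided among them, and the unnamed gene had 11284 CPM and 19560 CPM in PRM-positive members, 153-fold and 112-fold above the others. Not all genes with the symbol ACT5C were absent. ACTB/ACT5C m000029F_a13.123 had 616 CPM in the mixed PRM-positive members of the library code FYB, against 1131 CPM in the other barcodes of that code.

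TM1 (TPM4/TM1 m000009F_a11.7), a tropomyosin, the rod that lies along the thin filament, was high in both classes of the young sample. It had 1020 CPM in PRM-positive and 946 CPM in MP20-only members there, against 233 CPM in the others, ratios of 4.38 (2.44 to 7.26) and 4.06 (2.70 to 5.88). The mixed sample had 1001 CPM in PRM-positive members, 13.6-fold (9.88 to 18.3) above the 73.8 CPM of the others, and 65.2 CPM from 4 UMIs in MP20-only members.

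Among thick filament genes, MLC1 (MYL4/MLC1 DAPMA1EVG011061), a light chain that sits on the neck of muscle myosin, had 9313 CPM in the young PRM-positive members. It had 53.0 CPM in the others, a ratio of 176 (140 to 221), and 0 UMIs in the MP20-only members, a limit of 97.9 CPM at 3 UMIs. The mixed levels were 13556 CPM, 146 CPM and 32.6 CPM in the same order, and the PRM-positive ratio was 92.8 (82.6 to 104). SQH (MYL9/SQH DAPMA1EVG025392), the regulatory light chain of non-muscle myosin, had 136 CPM from 2 UMIs in young PRM-positive members against 2212 CPM in the others, a ratio of 0.0615 (0.00744 to 0.222). In the mixed sample SQH had 566 CPM against 965 CPM and was not called. ZIP (MYH10/ZIP DAPMA1EVG017440), the non-muscle myosin heavy chain, had 56.6 CPM from 3 UMIs in mixed PRM-positive members against 337 CPM, a ratio of 0.168 (0.0346 to 0.493). In the young sample ZIP was not called. It had 410 CPM in the 12 PRM-positive members of the library code Y2, against 399 CPM in the other barcodes of that code. The 6 PRM-positive members outside Y2 had 0 CPM, against 991 CPM over all young others. In MP20-only members the ratios to the others were 1.03 and 1.44 for SQH and 0.790 and 1.79 for ZIP, none of them called. No gene in the files carries the fly symbol of muscle myosin heavy chain, so its level is not given.

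At the Z disc and along the elastic filaments, BT (TTN/BT DAPMA1EVG017757), projectin, had 2175 CPM and 2643 CPM in PRM-positive members. The other barcodes had 11.0 CPM and 11.1 CPM, ratios of 197 (119 to 326) and 237 (164 to 351), and the MP20-only members had 0 UMIs in both samples, limits of 97.9 CPM and 48.9 CPM at 3 UMIs. ZASP66 (PDLIM1/ZASP66 DAPMA1EVG032337), a PDZ and LIM type protein of the Z disc in flies, had 4147 CPM and 1076 CPM against 11.3 CPM and 7.53 CPM, ratios of 366 (240 to 565) and 143 (87.9 to 239), and also 0 UMIs in MP20-only members. Projectin and ZASP66 were thus high in PRM-positive members, as the troponins were, and had 0 UMIs in MP20-only members. The limits for MP20-only members lie above the levels of the other barcodes. These zeros therefore do not show a level below that of the others.

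ACTN (ACTN1/ACTN DAPMA1EVG013827), alpha-actinin, the crosslinker of thin filaments at the Z disc, had 8497 CPM and 3115 CPM in PRM-positive members. The others had 711 CPM and 566 CPM, so the ratios of 11.9 (9.90 to 14.3) and 5.50 (4.67 to 6.46) were smaller than those of troponin I and T. MP20-only members had 0 UMIs of it in the young sample, a limit of 97.9 CPM, and 245 CPM in the mixed sample. CHER (FLNA/CHER DAPMA1EVG015114), filamin, an actin crosslinker of muscle and other cells, had 3671 CPM and 3550 CPM in PRM-positive and 5219 CPM and 2316 CPM in MP20-only members. Its ratios to the others were 2.61 and 6.65 in PRM-positive and 3.71 and 4.34 in MP20-only members, so it did not separate the classes.

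SLS (TTN/SLS DAPMA1EVG027627), Sallimus, the titin-like spring of insect muscle, was the only sarcomere gene called higher in both classes in both samples. In the young sample it had 15703 CPM in PRM-positive members, 8906 CPM in MP20-only members and 394 CPM in the others, ratios of 39.9 (34.5 to 45.9) and 22.6 (19.8 to 25.8). The mixed levels were 3247 CPM, 538 CPM and 110 CPM, ratios of 29.5 (24.4 to 35.4) and 4.88 (3.31 to 6.98). It was found in 14 of 15 young and 16 of 31 mixed MP20-only barcodes.

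For calcium handling, SERCA (ATP2A1/SERCA DAPMA1EVG012354), the pump that refills the calcium store, had 1903 CPM and 2096 CPM in PRM-positive members. It had 195 CPM and 228 CPM in the others, ratios of 9.75 (6.43 to 14.2) and 9.19 (7.46 to 11.2), and 228 CPM and 147 CPM in MP20-only members. Of the 16 genes of the calcium list, 8 were measured well enough in the young and 11 in the mixed sample, and SERCA was the 1 called higher in PRM-positive members in each, where 0.783% and 1.64% of all measured genes were called higher by the rule given below.

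**Figure D2:**
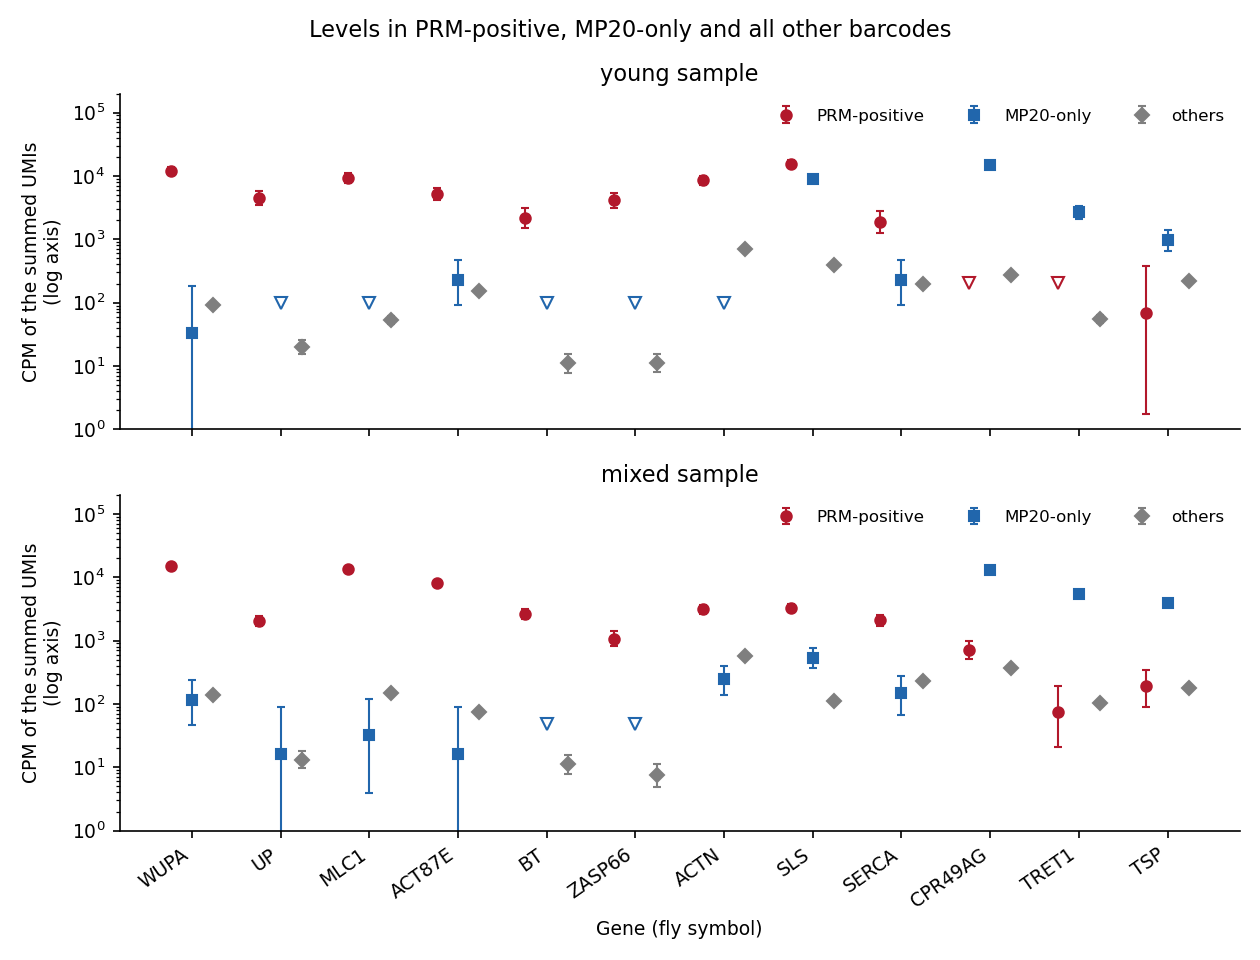
Levels of 12 genes in CPM (log axis) in the PRM-positive members, the MP20-only members and the other barcodes of each sample, with 95% Poisson intervals, and open triangles for the limit of 3 UMIs where none was counted. WUPA, UP, MLC1, ACT87E, BT, ZASP66, ACTN and SERCA were called higher than in the others in the PRM-positive members and not in the MP20-only members, SLS in both classes, and CPR49AG, TRET1 and TSP in the MP20-only members and not in the PRM-positive ones.

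Across all genes a call needed at least 50 UMIs over members and other barcodes, a ratio of CPM of at least 4 with 10 UMIs for higher, or of at most 0.25 with 10 UMIs due at the others' level for lower, with counts under 3 set to 3. Of 6255 genes so measured in the young sample, 216 (3.45%) were higher and 182 (2.91%) lower in the members, and of 7076 in the mixed sample 249 (3.52%) were higher and 439 (6.2%) lower. With scaling by TMM or by the median of ratios, which shifted the median log2 ratio of all genes in the mixed sample by 0.44 and 0.50, the number lower there was 196 and 180. Of 5265 genes measured in both samples 101 (1.92%) were higher and 55 (1.04%) lower in both, and none went opposite ways.

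Of the 40 sarcomere genes, 25 met the count minimum in the young and 27 in the mixed sample, and 8 and 13 of these were higher in the members, with 8 higher in both. In the same members 1 and 4 of them were lower. Of all measured genes 3.45% and 3.52% were higher and 2.91% and 6.2% lower. The gene lists and the members were chosen with results of these data known, and members were selected for muscle genes, so these counts are read only as a description. The median log2 ratio of the measured sarcomere genes was 1.67 and 1.48, against 0.52 and -0.41 over all genes measured.

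The classes were also compared with the other barcodes separately. In PRM-positive members 49 (0.783%) genes were higher in the young and 116 (1.64%) in the mixed sample, with 31 (0.589%) higher in both. In MP20-only members 218 (3.49%) and 250 (3.53%) were higher, with 119 (2.26%) in both. The sets higher in both samples shared 1 gene, SLS. This is 3.23% of the 31, near the 2.26% of all measured genes in the MP20-only set, so the small overlap is not a result. Genes higher in 1 sample and lower in the other numbered 2 of 5265 (0.038%) in the MP20-only class. Of the 101 genes higher in the undivided members, 23 were among the 31 of the PRM-positive class, which is 22.8% of the former and 74.2% of the latter. Among the 119 of the MP20-only class were 77 of the 101, SLS again included, or 76.2% and 64.7%. The sarcomere list contributed 9 genes to the PRM-positive and 1 gene to the MP20-only set, and the cuticle list 0 and 6.

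**Figure D3:**
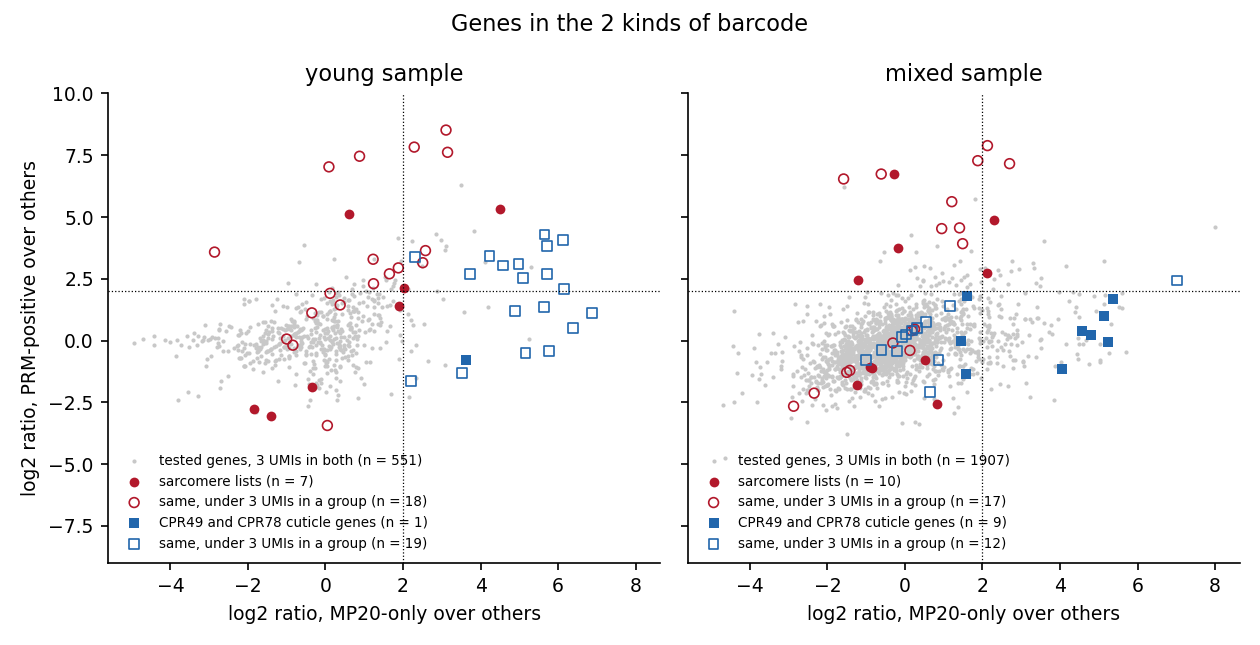
Log2 ratio to the other barcodes in PRM-positive members (vertical) against MP20-only members (horizontal) for each measured gene of the young (left) and mixed (right) sample, with sarcomere and cuticle protein genes coloured and open symbols for genes with under 3 UMIs in a class, whose position is set by the floor of 3 UMIs. The sarcomere genes called higher in PRM-positive members (9 young, 14 mixed) lie at the top, those called lower (3 in each) at the bottom, and the cuticle genes called higher in MP20-only members to the right, and SLS is the gene called higher, past the ratio of 4 (dotted lines), on both axes in both samples.

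Within the PRM-positive members, 9 of 25 sarcomere genes measured in the young and 14 of 27 in the mixed sample were higher, and 3 in each were lower. By role, 4 of 11 and 6 of 12 thin filament genes were higher, 1 of 3 in each sample for the thick filament, where MLC1 was that gene, and 4 of 11 and 7 of 12 for the Z disc and elastic filaments. The lower ones included ACT5C in both samples, SQH in the young and ZIP in the mixed sample, which belong to the non-muscle cytoskeleton. They were not the whole set. Of the thin filament list 2 genes were lower in the young sample, ACT5C included, and of the Z disc list 1 gene in the mixed sample. The median log2 ratio of the measured list was 2.71 and 2.46, beside 1.86 and 0.19 over all genes. The young value of 1.86 is set largely by the floor, since 3 UMIs among the 14711 of those barcodes are already more than many genes have in the other barcodes.

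Other genes higher in both samples in PRM-positive members, 4 of them picked from the 31 after their values were seen, had various roles. CG5023 (CNN3/CG5023 DAPMA1EVG027908), a calponin-family actin-binding protein, had 1767 CPM and 1492 CPM against 44.4 CPM and 11.4 CPM, ratios of 39.8 (25.2 to 60.7) and 130 (87.5 to 197). UNC (TTN/UNC DAPMA1EVG026439), a gene with the human symbol of titin, had ratios of 37.6 (20.2 to 65.4) and 15.1 (9.44 to 23.3). CG14207 (HSPB1/CG14207 DAPMA1EVG015750), a small heat shock protein, had ratios of 21.6 (13.1 to 33.8) and 12.3 (8.38 to 17.7), and in the young MP20-only members also 14.3 (9.36 to 21.1). KAR (SLC16A10/KAR DAPMA1EVG034433), of the monocarboxylate transporter family, had ratios of 42.0 (27.0 to 63.2) and 12.7 (8.65 to 18.1).

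Some of the highest PRM-positive levels belonged to genes without a symbol. DAPMA1EVG024143 had 32697 CPM and 25375 CPM, in 18 of 18 and 78 of 88 barcodes, against 202 CPM and 483 CPM in the others, ratios of 162 and 52.5. DAPMA1EVG021038 had 26171 CPM and 26508 CPM against 69.4 CPM and 188 CPM, ratios of 377 and 141. DAPMA1EVG011326 had 23520 CPM and 25149 CPM against 141 CPM and 341 CPM, ratios of 167 and 73.8. All 3 were near absent from the MP20-only members, with 0, 0 and 2 UMIs in the young and 1, 2 and 7 UMIs in the mixed sample. Of the 31 genes higher in both samples 13 carry no symbol, as do 76 of the 119 in the MP20-only class.

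In PRM-positive members 52 (0.831%) genes were lower in the young and 150 (2.12%) in the mixed sample, and 12 (0.228%) in both. Besides ACT5C these included MLC (MYL6/MLC DAPMA1EVG022783), a light chain with the human symbol of a non-muscle and smooth muscle form, with ratios of 0.188 and 0.243. STAI (STMN4/STAI DAPMA1EVG015541), stathmin, which destabilises microtubules and is abundant in neurons, had 0 UMIs in the young PRM-positive members against 1095 CPM in the others, and 208 CPM against 1260 CPM in the mixed sample. CG13369 (RBKS/CG13369 DAPMA1EVG024862), with the human symbol of ribokinase, had 0 UMIs against 1020 CPM in the young and 75.5 CPM against 2020 CPM in the mixed sample. The same genes STAI and CG13369 were lower in MP20-only members too, STAI with ratios of 0.119 and 0.0388 and CG13369 with 1 and 5 UMIs.

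Lists of muscle transcription factors and metabolic genes are short, so with 0.783% and 1.64% of all measured genes higher in PRM-positive members, counts near 0 are not a result about them. MEF2 (MEF2A/MEF2 DAPMA1EVG018678), a factor that drives muscle gene expression in flies and vertebrates, had 476 CPM from 7 UMIs in young PRM-positive members against 116 CPM, which fell short of the 10 UMIs a call needed. It had, in the mixed sample, 321 CPM from 17 UMIs against 44.9 CPM, a ratio of 7.15 (4.06 to 11.8). It was the 1 of 15 measured genes of the factor list called higher there, and 0 of 16 were called in the young sample. Of the glycolysis list 1 of 9 measured genes was higher in the young PRM-positive members, LDH (LDHA/LDH DAPMA1EVG032855), lactate dehydrogenase, with 680 CPM against 114 CPM, and 0 of 10 in the mixed sample. The mitochondrial list had 0 of 7 and 0 of 8 higher, and its share of UMIs was 0.367% and 0.502% in PRM-positive members and 0.308% and 0.398% in the others.

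MSP300 (SYNE1/MSP300 DAPMA1EVG018311), a giant nesprin that anchors nuclei and mitochondria in fly muscle, had 22772 CPM in young PRM-positive members and 19349 CPM in the young others, a ratio of 1.18. The mixed values were 1284 CPM against 272 CPM, a ratio of 4.73 (3.64 to 6.05). Its level in the other barcodes was thus far higher in the young sample, where the gene did not mark the members.

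In the MP20-only members many genes of the cuticle were higher. CPR49AG (CPR49AG DAPMA1EVG029381), a chitin-binding cuticle protein, had 15071 CPM and 12818 CPM against 275 CPM and 363 CPM in the others, ratios of 54.8 (48.8 to 61.3) and 35.3 (32.2 to 38.6). It was found in 9 of 15 young and 15 of 31 mixed MP20-only barcodes, against 3.31% and 8.66% of the other barcodes and 0 of 18 and 15 of 88 PRM-positive ones. The cuticle protein CPR78CC a000003F_p10.98 had 750 CPM and 3017 CPM, ratios of 31.5 (18.9 to 50.6) and 37.7 (31.1 to 45.6). Of the 70 cuticle and chitin genes, 25 and 26 were measured, and 20 and 8 of these were higher in MP20-only members, beside 3.49% and 3.53% of all measured genes. In PRM-positive members 0 were higher in either sample. With 0.783% and 1.64% of all measured genes higher there, that 0 is not a result about the list.

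Outside the cuticle list, 3 named genes higher in MP20-only members in both samples are given as examples. TRET1 (SLC2A8/TRET1 DAPMA1EVG026674), a carrier of trehalose, the blood sugar of arthropods, had 2675 CPM and 5479 CPM against 56.0 CPM and 105 CPM, ratios of 47.8 (36.4 to 62.2) and 52.4 (45.0 to 61.1). TSP (COMP/TSP DAPMA1EVG023741), thrombospondin, which tendon cells of flies lay down at muscle attachments, had 979 CPM and 3946 CPM against 222 CPM and 178 CPM, ratios of 4.40 (2.95 to 6.34) and 22.2 (19.0 to 25.8). COL4A1 (COL22A1/COL4A1 DAPMA1EVG017878), a collagen, had 1207 CPM and 342 CPM against 10.7 CPM and 21.1 CPM, ratios of 113 (69.2 to 183) and 16.2 (9.47 to 26.8). Collagens went both ways, since COL5A1/COL4A1 DAPMA1EVG011456 and COL2A1/COL4A1 DAPMA1EVG031663 were called lower in MP20-only members in both samples. Of the attachment list 1 of 16 and 1 of 15 measured genes were higher in MP20-only members, TSP in each, and 1 and 2 were lower, beside 3.49% and 3.53% of all measured genes higher and 3.6% and 4.66% lower, so these counts are not a result about the list.

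Lower in MP20-only members were 225 (3.6%) genes in the young and 330 (4.66%) in the mixed sample, with 53 (1.01%) in both. The 53 included the heat shock chaperone HSP83 (HSP90AA1/HSP83 DAPMA1EVG020211), with 3 and 9 UMIs and ratios of 0.0852 and 0.110. The cell cycle regulator cyclin B (CCNB1/CYCB DAPMA1EVG030556) had 0 and 2 UMIs, and the basement membrane laminin chain LANB2 (LAMC1/LANB2 DAPMA1EVG011273) had 1 and 3 UMIs. These 3 were picked after their values were seen.

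Markers of other cell types took no larger share of UMIs in PRM-positive members than in the other barcodes. Neuron genes made up 0.197% (0.132 to 0.283) and 0.138% (0.108 to 0.173) of their UMIs against 0.236% and 0.230% in the other barcodes, with 0 genes higher in either sample. The young interval includes the level of the others. Within that list SNAP25 had 1088 CPM against 728 CPM in the young sample and 37.8 CPM against 56.0 CPM in the mixed sample. Photoreceptor genes made up 0.0748% and 0.0661% against 0.131% and 0.368%, and digestive genes 0.0136% and 0.0774% against 0.0740% and 0.111%. Proliferation genes made up 0.0476% and 0.0850% against 0.208% and 0.353%, germline genes 0.0272% and 0.0321% against 0.117% and 0.151%, and globin and fat body genes 0.0816% and 0.168% against 0.275% and 0.291%. None of these lists had a gene called higher in PRM-positive members. With 0.783% and 1.64% of all measured genes called higher there, counts of 0 are not a result about such short lists. In the young PRM-positive sum 20 of 27 neuron genes and 31 of 36 photoreceptor genes were at 0 UMIs, 16 and 28 in the mixed. The MP20-only sums had 22 and 31 at 0 in the young and 16 and 30 in the mixed sample. Sums of few UMIs leave many genes at 0, so these zeros do not show absence. Of the hemocyte and basement membrane genes 19 and 22 were measured. In the MP20-only class 4 of these were higher in each sample and 5 and 6 lower. Of all measured genes 3.49% and 3.53% were higher in that class and 3.6% and 4.66% lower. In the PRM-positive class 0 and 1 were higher and 1 and 4 lower, beside 0.783% and 1.64% of all measured genes higher and 0.831% and 2.12% lower. The list made up 0.367% and 0.538% of the UMIs of PRM-positive members against 0.497% and 0.805% in the others. Ribosomal protein genes, a sign of RNA content and quality, made up 2.43% and 7.37% in PRM-positive members, 4.10% and 7.07% in MP20-only members, and 3.99% and 6.28% in the others. The part of depth or RNA quality in the ratios was not tested.

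The barcodes carry library codes, short strings of letters and digits in the barcode names, whose meaning is not given in the sources used here. In the young sample the shares of members were 9 of 1751 (0.514%, 0.235 to 0.974) for CH1, 9 of 1453 (0.619%, 0.284 to 1.17) for CH2 and 15 of 1815 (0.826%, 0.463 to 1.36) for Y2, with overlapping intervals. The make-up differed, with 3, 3 and 12 PRM-positive members against 6, 6 and 3 MP20-only ones. In the mixed sample FYB held 104 of the 119 members, 4.83% of its 2153 barcodes (3.96 to 5.82). FYH held 6 of 286 (2.10%, 0.774 to 4.51), MY2 7 of 663 (1.06%, 0.426 to 2.16) and MY1 2 of 399 (0.501%, 0.0608 to 1.80). F4W, FO1 and FO2 held 0 of 75, 154 and 234, which allows up to 4%, 1.95% and 1.28%. Without FYB the mixed share was 0.828%, so the gap between the samples rests on that code.

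**Figure D4:**
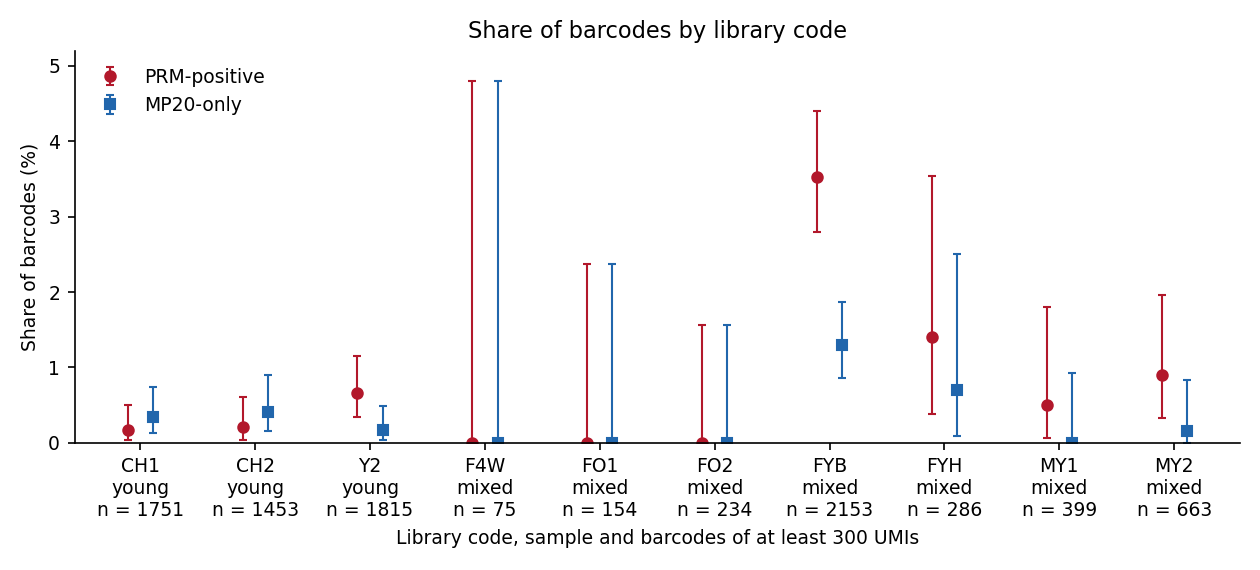
Percent of barcodes with at least 300 UMIs that were PRM-positive (red) or MP20-only (blue) in each library code of the young and mixed samples, with 95% exact binomial intervals. FYB has the highest share of PRM-positive members, at 3.53% (2.79 to 4.40), with an interval that overlaps those of FYH and F4W. It holds 2153 of the 3964 mixed barcodes and 28 of the 31 mixed MP20-only members.

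Troponin I, MLC1 and projectin were present in every code that held PRM-positive members, whereas ZASP66 had 0 UMIs in the 4 such barcodes of FYH. Troponin I (WUPA) had 14743, 12337 and 11288 CPM in CH1, CH2 and Y2, and 13467, 18701, 30612 and 26020 CPM in FYB, FYH, MY1 and MY2. MLC1 had 17285, 14338 and 6157 CPM in the young codes and 13776, 8366, 16035 and 13322 CPM in the mixed ones. Projectin (BT) had 2542, 3668 and 1642 CPM, and 2311, 2953, 2915 and 5620 CPM. The lowest code was thus Y2 for MLC1 and projectin, and for troponin I as well. Several codes hold 2 to 6 of these barcodes, so their levels rest on few barcodes.

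Levels in the MP20-only class also differed between codes, most of which hold few of its barcodes. FYB held 28 of them, CH1 and CH2 6 each, Y2 3, FYH 2 and MY2 1, so 0 UMIs in the smallest codes does not show absence. CPR49AG (DAPMA1EVG029381) had 26721 CPM in CH1, 11459 CPM in CH2 and 13856 CPM in FYB, and 0 UMIs in the 3 barcodes of Y2, the 2 of FYH and the 1 of MY2. All 336 mixed TRET1 UMIs and all 242 mixed TSP UMIs of the class came from FYB, and 28 of the 30 young TSP UMIs came from CH1. Without FYB, which leaves the 2 barcodes of FYH and the 1 of MY2 in the mixed sample, 13 genes were higher in both samples in MP20-only members.

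Some sarcomere genes of the PRM-positive members had unequal levels in the 2 samples. For those named here as higher in the young sample, leaving out FYB made the gap smaller but did not close that of SLS. SLS was 4.83-fold (3.95 to 5.92) higher in the young sample, ZASP66 3.85-fold (2.64 to 5.63), alpha-actinin 2.73-fold (2.14 to 3.46) and troponin T 2.21-fold (1.61 to 3.03). Troponin I, by contrast, had a young over mixed ratio of 0.796 (0.672 to 0.938), MLC1 of 0.687 (0.568 to 0.826), projectin of 0.823 (0.542 to 1.21) and SERCA of 0.908 (0.578 to 1.38). By code SLS had 12710, 17673 and 15700 CPM in CH1, CH2 and Y2, against 2399, 7382, 1458 and 9784 CPM in FYB, FYH, MY1 and MY2, so every young code lay above every mixed code. Over the 12 mixed barcodes outside FYB the level of SLS was 8375 CPM against 15703 CPM in the young sample. In the same 12 barcodes alpha-actinin had 8375 CPM against 8497 CPM in the young sample, ZASP66 3191 CPM against 4147 CPM and troponin T 3191 CPM against 4554 CPM. ZASP66 in MY2, at 4788 CPM, was above Y2, at 2463 CPM, so its codes overlapped between the samples. A Z disc gene with the symbol ZASP52, PDLIM1/ZASP52 DAPMA1EVG016297, lay the other way. Its young over mixed ratio was 0.116 (0.00285 to 0.697) from 1 young UMI. PDLIM5/ZASP52 DAPMA1EVG024772, with the same fly symbol, did not share that direction. Over all members its ratio was 3.78 (0.896 to 18.2), an interval that includes equal levels, and all its young UMIs came from Y2. SLS was also lower in the mixed others, 110 CPM against 394 CPM, and age, sex and library preparation cannot be told apart between these samples.

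In MP20-only members SLS was 16.5-fold (11.5 to 24.5) higher in the young sample. It had 8934, 10364 and 6224 CPM in CH1, CH2 and Y2 and 564 and 262 CPM in FYB and FYH, with 0 UMIs in the 1 barcode of MY2, again without overlap between the samples. The cuticle gene CPR49AE m000066F_s3.146 had 12005 CPM in the young MP20-only members against 144 CPM in the young others, and 16.3 CPM from 1 UMI in the mixed MP20-only members. Each of these values stands for 1 sample, and the difference was not tested.

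The PRM-positive class was itself mixed at its edge. Of its young barcodes 9 held paramyosin UMIs without the MP20 gene m000012F_a18.65, with a median of 1.81% troponin and MLC1, and 9 held both, with a median of 3.31%. In the mixed sample 37 held paramyosin without it, with a median of 1.13%, 50 held both, with 3.79%, and 1 held that MP20 gene without paramyosin. With both transcripts 9 of 9 and 45 of 50 barcodes reached 5 troponin or MLC1 UMIs, against 6 of 9 and 22 of 37 with paramyosin alone.

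Both troponin or MLC1 and cuticle transcripts were found in barcodes at the threshold. Of 15 young and 38 mixed members with exactly 3 rule UMIs, 4 and 10 held at least 5 troponin or MLC1 UMIs, and 8 and 9 held at least 10 cuticle UMIs. Just outside, of 22 young and 71 mixed barcodes with exactly 2 rule UMIs, 0 and 9 held at least 5 troponin or MLC1 UMIs, and 7 and 21 held at least 10 cuticle UMIs.

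MP20-only members held fewer genes than the rest at equal depth. Thinned to 300 UMIs, PRM-positive members had a median of 213 genes in the young and 204.5 in the mixed sample, MP20-only members 178 and 184, and the other barcodes 212 and 232. Unthinned medians were 437 and 271.5, 692 and 666, and 290 and 385 genes, in the same order. Barcodes with 2 cells were not called or removed, so an unknown number of members may be doublets.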

How the data were processed

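Single-cell RNA of whole Daphnia magna was analysed in 2 samples. The authors deposited raw counts per barcode and gene, per the file headers integer matrices of 442368 (young) and 48846 (mixed) barcodes and 33957 genes, 9030 of them with a symbol. The matrices were filtered differently. The aligner, genome build and UMI collapsing are not given in the sources used here, and no coordinates, gene models or sequences were used. The counts are called UMIs because inDrops reads carry them.

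Barcodes with at least 300 UMIs were kept. Counts were summed per class, scaled to a total of 1000000, and compared as ratios of sums with conditional binomial intervals. Shares have Clopper-Pearson intervals and levels Poisson intervals, all at 95%. The calling was tested on simulated data. Named genes are the 20 and 6 genes with the most extreme ratios higher and lower in both samples, up to 5 per list, and 3 per direction called in 1 sample only. The members, the split of the members and the 17 gene lists were chosen with earlier results of these data known, and the lists match genes by fly symbol, so a list can hold genes with other roles. Alternatives were other minimums, rule thresholds, scalings (TMM and median of ratios), weighting of the others by depth, and each library code left out. Doublets were not called. The values of 1 gene are not reported here. The barcode lists give row numbers and library codes but no barcode sequences, so barcodes shared by libraries were not counted. Tools were python 3.11.15, numpy 2.4.6, pandas 2.3.3, scipy 1.17.1, matplotlib 3.10.9, R 4.3.3 and edgeR 4.0.16 (TMM factors only).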

Additional observations from a re-analysis of the deposited data

Results flagged for a closer look

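Barcodes below 300 UMIs, which enter no comparison above, also met the threshold of 3 rule UMIs. With 100 to under 200 UMIs they were 0.0854% of 25755 young and 0.627% of 17377 mixed barcodes, where a count of 0 would allow up to 0.0116% and 0.0173%. With 200 to under 300 UMIs they were 0.204% of 6380 young and 2.30% of 3003 mixed barcodes, with limits of 0.0470% and 0.0999%. Of the 22 and 109 shallower ones, 18 and 83 held a troponin or MLC1 UMI, and of the 13 and 69 deeper ones 12 and 68 did.

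Among MP20-only members 2 of 5265 genes measured in both samples (0.038%) went opposite ways. DAPMA1EVG017552 had a log2 ratio of -2.58 in the young sample, from 0 UMIs against 584 CPM in the others, and 2.16 in the mixed sample, with 2104 CPM against 470 CPM. OSR2/DRM DAPMA1EVG021972 (Drumstick, a zinc finger factor of fly leg and gut development) had -2.46 in the young sample, from 0 UMIs against 538 CPM, and 2.78 in the mixed sample, with 375 CPM against 54.5 CPM. Each young value is set by the floor of 3 UMIs, and the difference was not tested.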

How the results depend on the processing

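Of the values of 100 named genes and samples, compared under every alternative, 1425 comparisons kept direction and call, 114 lost the call, 41 gained it and 20 reversed. With at least 5 rule UMIs the shares were 0.319% and 1.66% (young, then mixed), the young sarcomere-UMI share 100%, genes higher and lower 131 and 75 in the young sample and 62 and 34 in both, and MP20-only genes higher in both 60. With rule UMIs at 1% of the barcode or more the shares were 0.119% and 1.36%, the sarcomere-UMI shares 100% and 100%, genes higher 41, 79 and 26 (young, mixed, both) and lower 12, 108 and 3; the 1% rule left too few MP20-only barcodes for a value. A minimum of 500 UMIs gave a young share of 1.24%. Genes lower in the mixed sample and in both were 196 and 36 with TMM and 180 and 33 with the median of ratios. A minimum total of 200 gave 126, 132 and 54 genes higher, sarcomere genes 5, 6 and 5, and 20 PRM-positive and 77 MP20-only genes higher in both. A ratio of 8 gave 117 genes higher in the mixed sample and 57 in both, 46, 82 and 7 lower, and 59 for MP20-only. PRM-positive members alone gave 49, 116 and 31 higher, 52, 150 and 12 lower and a mixed sarcomere-UMI share of 97.7%. MP20-only members alone gave 2, 2 and 1 sarcomere genes and 80.6%. These class settings were chosen after seeing the data.

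Reversed log2 ratios of members were, with 5 rule UMIs, DAPMA1EVG017566 (-0.32, young), and with the 1% rule in the mixed sample a000079F_p2.44 (-0.28), TRET1 (-0.96), DAPMA1EVG022082 (-0.43), CPR78CC a000003F_p10.98 (-0.36) and TSP (-0.02). In mixed PRM-positive members they were a000079F_p2.44 (-0.15), TRET1 (-0.47) and CPR78CC (-0.08). In MP20-only members they were DAPMA1EVG021038 (-1.94), DAPMA1EVG020786 (-1.84), MLC1 (-1.58), WUPA (-0.28), ACT87E (-0.61), TM1 (-0.18) and SERCA (-0.64) in the mixed sample, and in young and mixed DAPMA1EVG011326 (-0.53, -1.58) and DAPMA1EVG024143 (-1.05, -3.30). The cause was not tested, except that the class settings hold fewer barcodes by construction.

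Leaving out each library code gave shares of 0.562 to 0.734% (young) and 0.828 to 3.39% (mixed), and sarcomere-UMI shares of 91.7 to 95.8% and 86.7 to 94.7%. Genes higher ran 168 to 190, 86 to 243 and 27 to 101 (young, mixed, both), lower 100 to 160, 25 to 452 and 11 to 61, and sarcomere genes 6 to 10, 6 to 13 and 4 to 9. PRM-positive genes higher in both ran 16 (without Y2) to 31, and MP20-only 13 (without FYB) to 121. No paired analysis was possible because each group is 1 sample. With 14711 UMIs in young PRM-positive members, 1 UMI is 68.0 CPM, so low genes could not be seen there.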
